A study of Mus musculus with 12 samples.

Results

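The family of miR-148a, miR-148b and miR-152 was followed through 2 days of the daily light cycle in mouse liver. Its members were chosen by name, as the array entries mmu-miR-148a, mmu-miR-148b and mmu-miR-152 without a star, which gave 3 of the 611 mouse miRNA entries on the array. Adult mice lived under a daily schedule of 12 h light and 12 h dark and could eat and drink freely. Collections were 4 h apart, the first at zeitgeber time 18 (ZT18, in hours from a lights-on) and the last at ZT62. At each of them RNA from 2 livers was mixed and read on 1 one-colour Agilent miRNA array, so 12 pools stood on 12 arrays. The labels name no strain, sex, genotype or treatment, and all groups shared the same feeding and lighting. The arrays fell on 6 clock times, at 2, 6 and 10 h after lights on (6 light arrays) and at 14, 18 and 22 h (6 dark arrays). Each clock time was sampled once in a first cycle and again 24 h later in a second cycle. The p-values below therefore measure the spread between pools of 2 livers and their arrays, not between mice.

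MicroRNAs (miRNAs) are short RNAs that guide Argonaute proteins to messenger RNAs, mostly by pairing of their seed, and lower the messenger's translation and stability. miRNAs with the same seed can bind the same sites, so miR-148a, miR-148b and miR-152 are counted as a family. In liver, miR-148a is known as an abundant hepatocyte miRNA that represses the LDL receptor and the cholesterol exporter ABCA1. The family is also known to target the DNA methyltransferase DNMT1, and miR-148b and miR-152 lie inside genes of COPI vesicle coat subunits.

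The mature sequences, from RefSeq (GRCm38.p6), show what the members share and where they part. Capitals mark the seed, bases 2 to 8 from the 5′ end.
miR-148a: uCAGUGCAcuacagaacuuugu
miR-148b: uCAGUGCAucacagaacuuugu
miR-152: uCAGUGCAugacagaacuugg
The 3 members had the same seed, and among the 1679 mature mouse miRNAs held by RefSeq here it occurred in these 3 alone. Counted from the 5′ end, miR-148b differed from miR-148a by C9U and U10C, just behind the seed, and the other 20 of 22 positions were identical (90.9%). miR-152 differed from miR-148a by C9U, U10G and U20G, with 18 of 21 shared positions identical (85.7%), and from miR-148b by C10G and U20G (90.5% identical).

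The family is spread over 3 chromosomes in GRCm38.p6. miR-148a lies at chr6:51269829-51269850 on the minus strand, within the span of the gene model Gm38821. miR-148b lies at chr15:103285185-103285206 on the plus strand within Copz1, and miR-152 at chr11:96850439-96850459 on the plus strand within Copz2, both on the strand of the gene. Copz1 and Copz2 encode the zeta subunits of the COPI coat. Gene spans were used here, so exons and introns were not told apart. No build is named for the array files, and the members were matched to RefSeq by name, the unstarred entries being taken as the 3′ arms.

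The whole miR-148a hairpin is shown because the array has entries for both of its arms. Capitals mark the 5′ arm (bases 23 to 44) and the 3′ arm (bases 61 to 82).
Mir148a hairpin: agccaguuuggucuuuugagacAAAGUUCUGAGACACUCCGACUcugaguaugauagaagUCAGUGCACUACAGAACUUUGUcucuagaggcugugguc
The 5′ arm is the entry miR-148a*, and its mature sequence has another seed, again in capitals.
miR-148a*: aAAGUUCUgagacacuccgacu
miR-148a* was detected on 0 of 12 arrays. Its 4 probes had mean scaled intensities between -6.77 and 10.4, under the floor of the measurement, and 5 of their 240 spots were well above background. The unstarred miR-148a was detected on all 12 arrays. Other arms of miR-148b and miR-152 were not analysed here.

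Values are spot intensities with the local background taken off, scaled between arrays to the 75th percentile of the 157 probes detected on all 12 arrays. The floor, the lowest signal taken as measured, was 21.9 intensity units, and lower values were set to it. Between 132 and 162 of the 650 entries (611 mouse and 39 herpesvirus) were detected on an array, and between 16.5% and 19.6% of spots lay well above background. Tests covered the 139 entries with a detection call on 6 arrays or more, the 3 members among them. The arrays carried liver RNA by their markers: the summed intensity of miR-122, miR-192 and miR-194 of hepatocytes lay between 33503 and 37153 on the light arrays and between 33666 and 37069 on the dark arrays. The neuronal (miR-124 and miR-9) and striated muscle (miR-1, miR-133a and miR-206) markers were each detected on 0 of 12 arrays. An array was made of a pool of livers, so fewer cells of a type and less RNA per cell cannot be told apart.

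The intensity of a probe depends on the probe as well as on the RNA, so levels were compared over arrays within a member and not between members. Whether a probe of 1 member also reads another, given the few bases that separate them, was not tested, and probe sequences were not used here.

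miR-148a was bright, and with the scaling used it was steady over the 12 arrays. Its brighter probe (A_54_P1274) read 1284 ± 50.5 (SD, n = 12), which was 58.7 times the floor, and its highest array stood 1.15-fold above its lowest. The second probe (A_54_P1273) read between 802 and 932. Over the 12 arrays the log2 values of the 2 probes correlated with r = 0.754 (rho = 0.853), given as a description of probes that share the RNA and the scaling.

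miR-148b was dim. The probe that represents it (A_54_P1382) read 34.1 ± 2.22 (SD, n = 12), 1.56 times the floor, and was detected on 11 arrays. The second probe (A_54_P1381) read between 1.12 and 19.1, below the floor on all 12 arrays, and was detected on 0. The account of miR-148b therefore rests on 1 probe close to the limit of the measurement.

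miR-152 was dim as well, but was seen by a pair of probes. The brighter (A_54_P2334) read 49.6 ± 4.53 (SD, n = 12), 2.27 times the floor, and was detected on all 12 arrays. The second (A_54_P2333) read between 30.8 and 39.8 and was detected on 11 arrays. Their log2 values correlated with r = 0.586 (rho = 0.671) over the 12 arrays.

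As a background, 3 herpesvirus entries were never at the floor and were detected on all 12 arrays, although the labels name no infection. mcmv-miR-M23-1-5p read 149, mcmv-miR-m88-1 85.5 and mghv-miR-M1-2 29.7 intensity units on average. Readings of the size of miR-148b and miR-152 thus also occurred on probes for viral miRNAs, and how much of the 2 dim members' signal is their own was not tested.

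**Figure D1:**
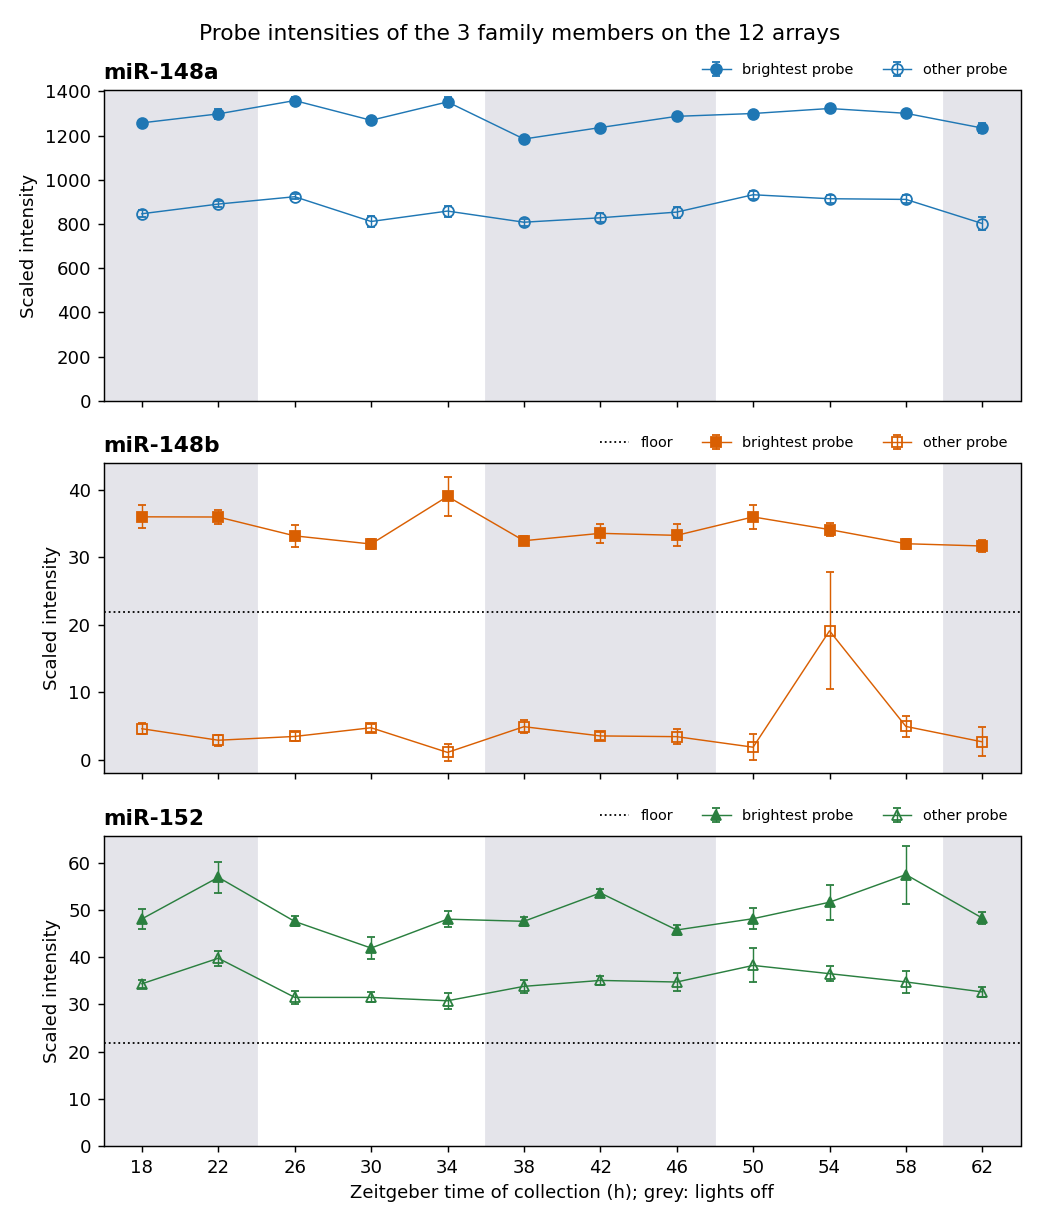
Scaled intensity (linear axes, not comparable between panels) of both probes of each member against zeitgeber time in hours, with error bars for the SE over spots and grey for lights off. The miR-148a probes keep between 1185 and 1359 and between 802 and 932, while the second miR-148b probe lies under the dotted floor of 21.9 on all 12 arrays.

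The spots of a probe show how well an array measures each member. Each value is a mean of 8 to 10 spots, whose median coefficient of variation was 3.15% for miR-148a, 11.1% for miR-148b and 11.8% for miR-152. The spread of spots would by itself give 8.17% of the variance between arrays for miR-148a, 42% for miR-148b and 31.2% for miR-152. A larger share of the array-to-array spread of the dim members was therefore spot noise.

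Over the 12 arrays the SD was 0.057 log2 units for miR-148a, 0.092 for miR-148b and 0.13 for miR-152. Among the 109 tested entries never at the floor, whose median SD was 0.095, 14 varied less than miR-148a, 49 less than miR-148b and 69 less than miR-152. In this ranking, which took no account of brightness, miR-148a was among the steadier entries and the other 2 lay near the middle. Close to miR-148a in brightness, the SD was 0.053 for miR-126-3p (1315 intensity units) and 0.061 for let-7c (1407). Close to miR-148b, it was 0.165 for miR-331-3p (35.0) and 0.170 for miR-185 (36.2). The members were not ranked among entries of like brightness.

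The first question was whether the members differ between the light and the dark hours, as a series on the circadian liver asks. miR-148a read a little lower in the dark, 0.948-fold, and did not pass the test. Its light arrays ran from 1269 over a median of 1312 to 1359, and its dark arrays from 1185 over 1247 to 1298. The groups overlapped, but 4 of the 6 dark arrays lay below the lowest light array. Of the 6 light arrays, 5 lay above the highest dark array. How many other tested entries came as close to separation was not counted.

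On the log2 scale the mean of miR-148a was 10.36 ± 0.04 over the light arrays and 10.29 ± 0.05 over the dark arrays (SD, n = 6 each). The dark minus light difference was -0.076 (SE 0.024), a fold of 0.948 with a 95% interval of 0.914 to 0.984. In limma its unadjusted p was 0.00944, the third smallest of the 139 entries, and its adjusted p was 0.355. In this comparison 0 of 139 entries (0%) passed the adjusted threshold and 11 (7.91%) had an unadjusted p under 0.05, 8 of them lower in the dark (5.76%). The difference was larger than the SD within either group and did not pass the adjustment over 139 entries.

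All 6 dark arrays of miR-148a were below its light mean, which held for 24 of the 139 tested entries (17.3%), and the arrays of both groups did not overlap in 1 entry (0.719%), miR-365. The second probe of miR-148a gave a dark minus light difference of -0.089. The difference was -0.090 in the first cycle and -0.063 in the second (3 dark and 3 light arrays each), and its change between cycles, 0.027 log2 units, had an adjusted p of 0.951 in limma. After quantile normalization that change was 0.114 and passed (limma adjusted p = 0.0483, against 0.0483 to 1 over 14 alternatives), and its sign was turned without scaling, with the mean of detected probes, with the software's gene signal and without the ZT38 array. Over all 139 entries the median dark minus light difference was -0.02, with 41 entries higher and 92 lower in the dark.

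The direction depended on how arrays were put on 1 scale. With scaling on all probes miR-148a stood at 0.35 log2 units above the light, but so did the median of all entries, at 0.38, and relative to that median miR-148a was at -0.024. Relative to the median of all entries it was at -0.053 with the scaling used, -0.041 without scaling and -0.068 after quantile normalization. It was at 0.36 with another background correction (normexp), and at -0.031 with the ZT58 array left out of that correction. The normexp ZT58 array gave miR-148b a reading of 517 against 87.5 to 104 on the other arrays. Without subtracting the median, the difference of miR-148a was -0.015 without scaling and -0.0036 with normexp (limma unadjusted p = 0.759 and 0.946). It was -0.068 after quantile normalization and -0.067 with normexp without ZT58 (limma unadjusted p = 0.00717 and 0.0392).

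miR-148b and miR-152 showed no difference between light and dark beyond their spread. miR-148b ran from 32.0 over a median of 33.7 to 39.0 in the light and from 31.7 over 33.4 to 36 in the dark, so the groups overlapped almost wholly. Its fold was 0.985 (95% interval 0.908 to 1.07, limma adjusted p = 0.974), and the sign was turned with all-probe scaling, without scaling and after quantile normalization. The single high light array was ZT34.

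miR-152 ran from 41.9 over a median of 48.1 to 57.4 in the light and from 45.7 over 48.2 to 56.9 in the dark. The highest and the lowest array were both light arrays, and the dark arrays lay between them. Its fold was 1.02 (95% interval 0.908 to 1.15, limma adjusted p = 0.974), and the sign was turned with normexp. Its second probe gave a dark minus light difference of 0.052 log2 units.

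The members' differences changed between the cycles by different amounts. For miR-148b the dark minus light difference was 0.0074 log2 units in the first cycle and -0.051 in the second. For miR-152 it was 0.15 in the first and -0.090 in the second, a change of -0.24 (SE 0.14) with an unadjusted p of 0.126 and an adjusted p of 0.951 in limma. In this interaction test 0 of 139 entries (0%) passed and 3 (2.16%) had an unadjusted p under 0.05.

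**Figure D2:**
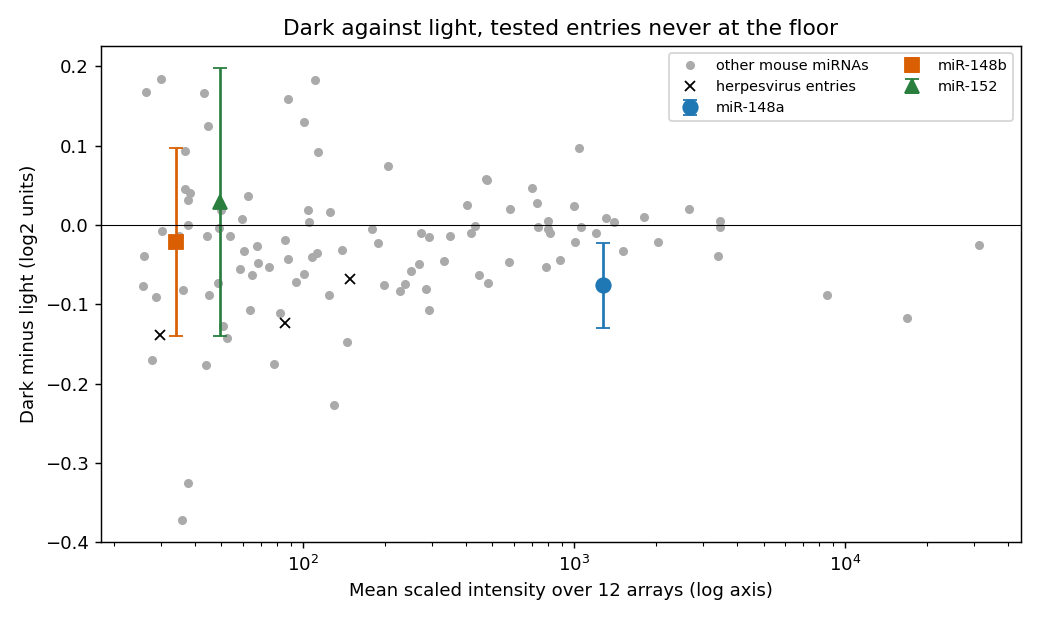
Dark minus light difference in log2 units against mean scaled intensity (log axis) for the 109 tested entries never at the floor, with 95% intervals for the 3 members. The interval of miR-148a, from -0.130 to -0.023, lies below 0, while those of miR-148b and miR-152 span it.

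The second comparison asked whether a member follows a 24-h rhythm, taken as a cosine and a sine of 24 h. All 3 fitted rhythms were small. The fitted peak of miR-148a stood 1.08-fold above its trough (upper 95% limit 1.16), at 3.92 h after lights on. Its unadjusted p was 0.0323, the fourth smallest of the 139 entries, and its adjusted p was 0.849 in limma.

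The fold was 1.03 for miR-148b (upper limit 1.21) and 1.05 for miR-152 (upper limit 1.32), each with an adjusted p of 0.993 in limma. Over all 139 entries the median fitted fold was 1.08. Of the 139 entries 0 (0%) passed and 5 (3.60%) had an unadjusted p under 0.05. These limits hold for the scaling and background correction used. With scaling on all probes the fitted folds were 1.25, 1.28 and 1.38 for miR-148a, miR-148b and miR-152 (limma adjusted p = 0.869 each). With normexp they were 1.12, 1.70 and 1.62 (0.696 each), and with its ZT58 array left out 1.07, 1.05 and 1.04 (0.907 each).

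A 12-h rhythm, which some liver transcripts have, was tested beside the 24-h terms. The fitted folds were 1.04 for miR-148a (upper limit 1.12), 1.06 for miR-148b (1.26) and 1.10 for miR-152 (1.40), and the adjusted p-values in limma were 0.777, 0.935 and 0.898. Here 0 of 139 entries (0%) passed and 8 (5.76%) had an unadjusted p under 0.05. No member passed the test.

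The 6 clock times were then compared without assuming a shape. miR-148a read 1359 and 1300.0 at 2 h after lights on, 1269 and 1323 at 6 h and 1353 and 1301 at 10 h (first and second cycle). In the dark it read 1185 and 1234 at 14 h, 1258 and 1236 at 18 h and 1298 and 1287 at 22 h. The lowest pair of arrays was thus the one 2 h after lights off, and the values then stood higher at 18 h and again at 22 h.

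From low to high, the clock times of miR-148a ran 14, 18, 22, 6, 10 and 2 h, with log2 means from 10.24 ± 0.04 to 10.38 ± 0.04 (SD, n = 2 each), a span of 1.10-fold. Sorted by these same means, the steps from 14 to 18 h and from 18 to 22 h were 0.045 and 0.052 log2 units. Both exceeded the pooled SD within a clock time of 0.035, and the arrays of those neighbours did not overlap. The nearest arrays at 14 and 18 h read 1234 (ZT62, SE over spots 23.8) and 1236 (ZT42), so that gap was within spot noise. How many of the 139 entries have such steps was not counted. The other 3 of the 5 steps were smaller than the pooled SD, so 22, 6, 10 and 2 h were not told apart in the order. Single steps were not tested. The F test over clock times gave an unadjusted p of 0.0328 and an adjusted p of 0.805 in limma, where 0 of 139 entries (0%) passed and 6 (4.32%) had an unadjusted p under 0.05.

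miR-148b read 33.2 and 36 at 2 h, 32.0 and 34.1 at 6 h and 39.0 and 32.0 at 10 h after lights on. In the dark it read 32.5 and 31.7 at 14 h, 36 and 33.6 at 18 h and 36 and 33.3 at 22 h. Its lowest clock mean was at 14 h, as for miR-148a, and its highest at 10 h, where its highest array (ZT34) and 1 of its lowest (ZT58) stood side by side.

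The 5 steps between clock times of miR-148b, ordered by level, were all smaller than the pooled SD of 0.10 log2 units (0 of 5 larger). The span was 1.10-fold, with an adjusted p of 0.881 in limma. No order of the clock times can therefore be read for miR-148b.

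miR-152 read 47.5 and 48.1 at 2 h, 41.9 and 51.6 at 6 h and 48 and 57.4 at 10 h after lights on. In the dark it read 47.6 and 48.3 at 14 h, 48.1 and 53.6 at 18 h and 56.9 and 45.7 at 22 h. At each of the clock times 6, 10 and 22 h the 2 arrays 24 h apart thus differed by 1.2-fold to 1.24-fold.

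For miR-152 too, 0 of 5 steps between clock times exceeded the pooled SD, here 0.15 log2 units. The span was 1.13-fold, with an adjusted p of 0.926 in limma. The lowest clock mean was at 6 h and the highest at 10 h, and their arrays overlapped.

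Pools taken at the same clock time 24 h apart show how far a level repeats from day to day. The median absolute difference was 0.058 log2 units for miR-148a, 0.11 for miR-148b and 0.21 for miR-152, and the largest 0.064, 0.29 and 0.31. With the scaling used, miR-148a thus came back within 1.05-fold at each of the 6 clock times, and the dim members did not repeat as closely. These differences depend on the scaling and are given for that scaling alone. At 2 h its factors were 1.02 (ZT26) and 1.04 (ZT50), while those of all-probe scaling were 1.22 and 0.424.

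No member passed the test between the cycles. The second cycle over the first was 0.996 for miR-148a (95% interval 0.960 to 1.03), 0.963 for miR-148b (0.873 to 1.06) and 1.05 for miR-152 (0.908 to 1.22). The adjusted p-values in limma were 0.964, 0.866 and 0.867, with 0 of 139 entries (0%) past the threshold and 5 (3.60%) at an unadjusted p under 0.05. miR-152 was higher in the second cycle at 5 of 6 clock times, miR-148a and miR-148b at 2 of 6 each.

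The arrays lay on 2 slides, 8 arrays (5 of them dark) on the first and 4 (1 of them dark) on the second, so slide and cycle overlapped in part. On the first slide alone the dark minus light difference was -0.083 for miR-148a, -0.016 for miR-148b and 0.13 for miR-152, with adjusted p-values of 0.923, 1 and 0.923 in limma. With the slide as a block they were -0.083, -0.040 and 0.063. The second slide holds too few dark arrays for a value of its own.

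**Figure D3:**
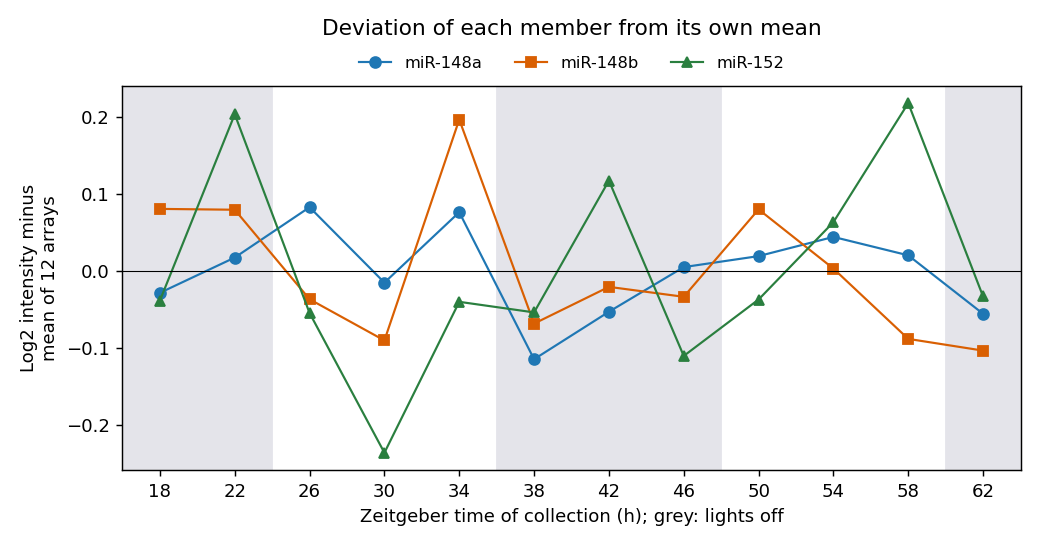
Log2 intensity of each member minus its own mean over the 12 arrays, against zeitgeber time in hours, with grey for lights off. miR-148a has the smallest SD over the 12 arrays, though not the smallest deviation on each, and is lowest at ZT38. miR-152 moves between its low at ZT30 and its highs at ZT22 and ZT58.

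Whether the members moved together was asked over the 12 arrays. miR-148a and miR-148b had r = 0.467 (permutation p = 0.126, adjusted over the 3 pairs 0.378) and rho = 0.364 (permutation p = 0.245, adjusted 0.735). Without ZT38 and ZT26, the arrays farthest from the median of miR-148a, r was 0.594, and on the first slide alone it was 0.487. The pair was not shown to move together.

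For miR-148a and miR-152 r was 0.103 (permutation p = 0.752, adjusted 0.752) and rho 0.042 (permutation p = 0.903, adjusted 0.903), with 0.121 without the same 2 arrays and -0.012 on the first slide. For miR-148b and miR-152 r was 0.114 (permutation p = 0.721, adjusted 0.752) and rho 0.133 (permutation p = 0.683, adjusted 0.903), with 0.332 without ZT34 and ZT18 and 0.398 on the first slide. Over the 5886 pairs among the 109 tested entries never at the floor the median r was 0.184, with the 10th and 90th percentiles at -0.279 and 0.609. All 3 family pairs lay inside that range.

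These correlations depended on the scaling between arrays. Without scaling they were 0.739, 0.745 and 0.598, and with scaling on all probes 0.924, 0.958 and 0.877, all past the threshold. An array's own factor enters every entry of that array alike, and the all-probe factors ran from 0.424 to 1.37 over the 12 arrays, against 0.853 to 1.08 for the factors used.

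The log2 difference of 2 members on an array does not depend on a factor of that array, so it was compared between dark and light in its own right, over 3 pairs. The difference of miR-148a over miR-148b changed by -0.055 (SE 0.047) in the dark, with a two-sided exact permutation p of 0.273 (adjusted 0.409), and was below the light mean on 4 of 6 dark arrays. That of miR-148a over miR-152 changed by -0.10 (SE 0.076), exact permutation p = 0.197 (adjusted 0.409), below on 5 of 6. That of miR-148b over miR-152 changed by -0.050 (SE 0.090), exact permutation p = 0.589 (adjusted 0.589), below on 4 of 6.

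No member was thus shown to move against another between light and dark. On the first slide alone (5 dark and 3 light arrays) the change for miR-148a over miR-152 was -0.22 (exact permutation p = 0.0536, adjusted 0.161). It was -0.067 for miR-148a over miR-148b (exact permutation p = 0.357, adjusted 0.357). For miR-148b over miR-152 it was -0.15 (exact permutation p = 0.125, adjusted 0.188). The light and dark arrays overlapped for all 3 pairs.

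**Figure D4:**
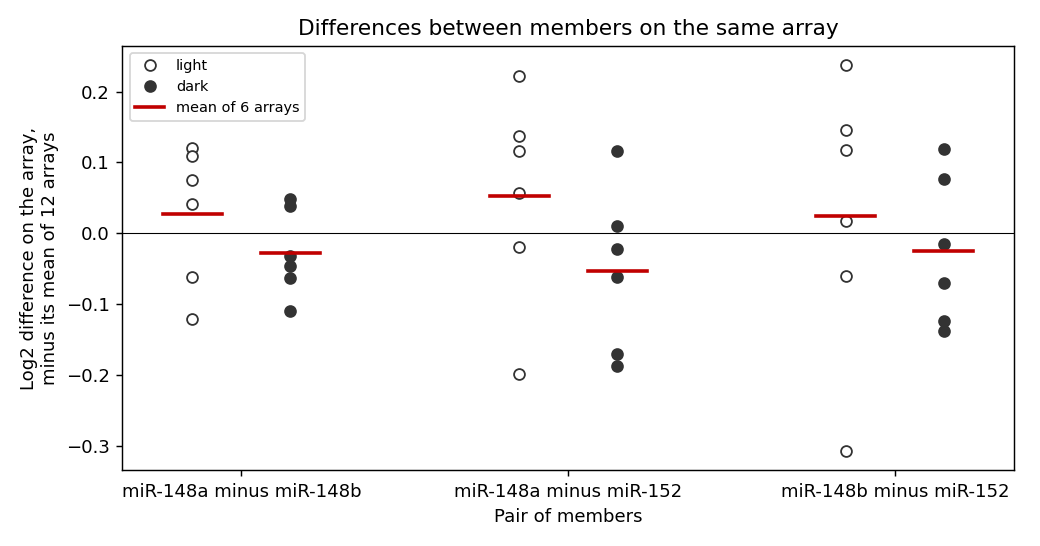
Log2 difference of 2 members on the same array, minus its mean over the 12 arrays, for 6 light (open) and 6 dark (filled) arrays of each pair, with bars for the group means. The groups overlap for all 3 pairs, and the dark means lie lower by -0.055, -0.10 and -0.050.

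The nearest neighbours of each member among the tested miRNAs were listed with the scaling used. Likeness was measured as Pearson's r of log2 values over the 12 arrays against the 106 tested non-members never at the floor, as a description of entries that share arrays and scaling. Nearest to miR-148a were miR-192 (r = 0.819), miR-92a (0.778) and miR-365 (0.714). Its median r with all 106 was 0.288.

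Nearest to miR-148b were miR-140* (r = 0.815), miR-28 (0.802) and miR-378 (0.796), beside a median of 0.373. Nearest to miR-152 were miR-23a (r = 0.738), miR-126-3p (0.705) and miR-27a (0.693), beside a median of 0.195. The 3 sets of neighbours had no miRNA in common. How often such sets of other entries share none was not counted, and the sets were not drawn up under other scalings.

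The other miRNAs with known roles in cholesterol metabolism were taken as a list of 23, of which 22 were on the array and 14 were tested. None of the 14 passed the test between dark and light (0 called), and 0 passed in the tests of 24-h rhythm, time of day, cycle and 12-h rhythm. In the dark 5 were higher, 8 lower and 1 equal, with a median difference of -0.01 beside -0.02 over all entries. Over all 139 entries 41 were higher and 92 lower. Of the 14, 1, miR-19b, had an unadjusted p under 0.05, beside 11 of 139 (7.91%) over all entries. Their median 24-h fold was 1.06, beside 1.08 over all entries, so the list stood near the background.

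Within that list, miR-122, the main hepatocyte miRNA, which supports cholesterol synthesis, had a dark minus light difference of -0.026 log2 units and a 24-h fold of 1.03 (upper limit 1.14). miR-33, which represses ABCA1 and is encoded within a gene of the sterol-responsive SREBP factors, was at the floor on all 12 arrays and was not tested. miR-27a and miR-27b stood at 0.074 and -0.016, and miR-19b, of the miR-17 to miR-92 cluster, at -0.074 (limma adjusted p = 0.740, 0.982 and 0.585). miR-30c, which targets microsomal triglyceride transfer protein, stood at -0.0048.

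Markers of the other cells of the liver were read beside these values. Their summed intensities ran, in the light and in the dark, from 1327 to 1463 and from 1325 to 1459 for endothelial cells (2 entries), and from 384 to 473 and from 372 to 451 for leukocytes (3 entries). They ran from 1434 to 2777 and from 1419 to 2473 for red cells (3), from 193 to 224 and from 192 to 276 for stellate and smooth muscle cells (4), and from 109 to 118 and from 109 to 163 for bile duct epithelium (5). The ranges of light and dark overlapped for each cell type. The sums hold entries at the floor. The bile duct miR-200c, miR-141 and miR-429 and the stellate and smooth muscle miR-145 were at it on all 12 arrays. They were not tested. Single markers stood further apart: the bile duct miR-200a and miR-200b were 1.30-fold and 1.23-fold higher in the dark (limma adjusted p = 0.585 and 0.740), with each at the floor on 3 arrays. The 3 tested stellate and smooth muscle entries were higher in the dark too, miR-143 1.12-fold, miR-199a-3p 1.07-fold and miR-199a-5p 1.03-fold (limma adjusted p = 0.740, 0.740 and 0.938). The 3 leukocyte entries were lower in the dark, miR-142-3p 0.945-fold, miR-142-5p 0.914-fold and miR-223 0.976-fold (limma adjusted p = 0.740, 0.740 and 0.974). So were the 3 hepatocyte entries, miR-122 at 0.982-fold, miR-192 at 0.973-fold and miR-194 at 0.998-fold. Over all 139 entries 41 were higher and 92 lower in the dark, with a median of 0.984-fold, so these directions alone do not set a cell type apart. The tested endothelial and red cell entries lay between 0.987-fold and 1.01-fold. In the test between dark and light 0 entries of these lists passed, and their part in the members' values was not tested.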

How the data were processed

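Per the file headers, the deposited values are spot intensities on a linear scale (background-subtracted and detrended processed signals of Agilent Feature Extraction). The software version is 10.7.3.1 in these headers but 9.5.3.1 in the submitters' processing notes. The series value table held the same values (largest difference 0). Control spots and outlier spots (3.82% to 6.94% per array) were dropped, spots of a probe were averaged, arrays were scaled, the floor was set and log2 taken. Detection of a probe meant over 50% of spots well above background, and each miRNA was represented by its brightest probe. At the floor lay 12.9% of the tested values. No spot was saturated (0).

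Tests used limma 3.58.1 in R 4.3.3 with an intensity trend, Benjamini-Hochberg adjustment over the 139 entries and a threshold of 0.05. Clock time, cycle and lights came from the sample titles. Correlations used 100000 permutations, and ratios the exact test over 924 splits. The scripts were tested on simulated data. The members and lists were chosen with earlier results of these data known. Named were the members, their probes and arms, for each member the 3 entries most like it, and miRNAs of the cholesterol list. The number of arrays limits the precision. Background correction, scaling, probe summary, floor, entries tested, variance model, slide and single arrays were varied. The interaction was run with the same alternatives, added after seeing the data.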

Additional observations from a re-analysis of the deposited data

How the results depend on the processing

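Under alternative settings 779 values were recomputed for the members, their pairs and the counts of calls. Of these 724 kept their direction and their side of the threshold, 37 changed sign and 18 crossed the threshold or changed a count. The 724 do not measure stability of size. Fitted folds have no sign, and changing the floor, the entries tested or the variance model left the members' estimates as they were. The 24-h fold of miR-148b, 1.03 and with normexp 1.70, also counted as kept. The cause of the changes was not tested unless named here. Scaling on all probes brought the median dark minus light difference of all entries from -0.02 to 0.38 log2 units. With it the dark minus light differences of miR-148a and miR-148b became 0.353 and 0.313, the cycle difference of miR-152 became -0.436, the changes of the dark difference between cycles became 0.471 for miR-148b and 0.431 for miR-152, and the pair correlations became 0.924, 0.958 and 0.877. Without scaling the difference of miR-148b was 0.039, the change between cycles of miR-148a -0.074, and the correlations were 0.739, 0.745 and 0.598. Quantile normalization gave 0.036 for miR-148b in the dark, changes between cycles of 0.114 for miR-148a and 0.177 for miR-148b, and r = -0.254 for miR-148a and miR-152. There 1 entry, miR-148a, passed the interaction test (limma adjusted p = 0.0483, against 0.0483 to 1 over its 14 alternatives). Normexp gave -0.380 for miR-152 in the dark, 0.424 for miR-148b between cycles, ratio changes of 0.438 (miR-148a over miR-148b) and 0.376 (over miR-152), and correlations of -0.857, -0.867 and 0.997. With it 1 entry, miR-451, passed each of the tests of 24-h rhythm, time of day and 12-h rhythm. With the ZT58 array left out as well, chosen after seeing the data, these counts were 0, and the values that still changed sign were -0.010 for miR-152 in the dark, 0.047 for miR-148b between cycles and 0.0095 for the change of the dark difference of miR-148b. The mean of detected probes gave miR-148a 0.011 between cycles and -0.049 for the change of its dark difference. The software's own gene signal gave -0.036 for the latter, r = -0.086 for miR-148a and miR-152 and -0.203 for miR-148b and miR-152. With the slide as a block, and on the first slide alone, the cycle difference of miR-152 was -0.079. On that slide r of miR-148a and miR-152 was -0.012 and 3 entries passed the time-of-day test. These were miR-1897-5p, miR-362-3p and miR-680, which were at the floor on 7, 9 and 11 of the 12 arrays. The interaction could not be fitted on that slide, and testing all entries was run without the intensity trend, which could not be fitted there.

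Leaving out each array in turn gave dark minus light differences from -0.087 to -0.061 for miR-148a (adjusted p 0.173 to 0.632 in limma), from -0.042 to 0.015 for miR-148b and from -0.016 to 0.075 for miR-152. The sign was turned without ZT34 for miR-148b and without ZT22 or ZT30 for miR-152. The cycle difference of miR-148a ran from -0.020 to 0.0051, with its sign turned without ZT26, ZT34, ZT50 or ZT58, and its change of the dark difference from -0.0090 (without ZT38) to 0.059. The r of miR-148b and miR-152 ran from -0.081 (without ZT30) to 0.339, and was -0.025 without ZT22. Entries past the threshold numbered 0 to 2 between dark and light (miR-101b and miR-1895 without ZT30). They numbered 0 to 8 in the time-of-day test, with 8 without ZT26, 2 without ZT46 (miR-143 and miR-29b) and 1 each without ZT54 (miR-362-3p) and ZT58 (miR-680). None of these was a family member, and they are named after their values were seen. Of the 8 without ZT26, mcmv-miR-m22-1, miR-30c-2*, miR-487b, miR-715 and miR-878-3p were at the floor on 11 of 12 arrays. Also among them, miR-197 was at the floor on 10 arrays, miR-1897-5p on 7 and miR-296-5p on 0. miR-680 was at the floor on 11 arrays, miR-362-3p on 9, and miR-143 and miR-29b on 0. The cycle test compared arrays of the same clock time, and in the dark against light test the cycle as a block changed no call. Signals 1.56 and 2.27 times the floor limit what can be said of miR-148b and miR-152.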
